A study of Danio rerio with 11 samples.

Results

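The insulin-like growth factor (IGF) axis was examined in livers of zebrafish larvae. Its members were 10 genes selected by gene name, the ligands igf1, igf2a and igf2b, the receptors igf1ra and igf1rb, and the binding proteins igfbp1a, igfbp1b, igfbp2a, igfbp2b and igfbp5b. They were chosen with the counts and the hUHRF1 to WT differences of these libraries already known, so for them that contrast is a description. Their levels and differences are given without p-values, and nothing is read from how many of them passed the test over all genes. The names led to 11 of 32105 gene IDs, because the name table gave human symbols to some zebrafish copies. igf1 is listed there as IGF1 and igfbp1a is taken to be IGFBP1, since the other copy is named igfbp1b. Both receptors are listed as IGF1R, both igfbp2 genes as IGFBP2, and igfbp5b shares the symbol IGFBP5 with its copy igfbp5a, so these pairs are given by ID and which ID is copy a or b was not resolved.

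Livers were dissected at 120 hours post fertilization (hpf). hUHRF1 pools came from Tg(fabp10a:hUHRF1-EGFP)high larvae, sorted by EGFP fluorescence, in which the fabp10a promoter drives human UHRF1 fused to EGFP in hepatocytes. WT pools came from siblings without fluorescence, and the labels name no treatment for either. There were 5 hUHRF1 pools, from clutches 4, 6, 7, 8 and 9 with 30 livers each (27 for clutch 6), and 6 WT pools of 20 livers, from clutches 4 to 9. A pool of a clutch is 1 replicate, and the WT pool of clutch 5 had no hUHRF1 partner. The labels describe an incross of transgenic carriers, whereas the methods describe a cross to WT fish and name the animals heterozygous for the transgene. UHRF1 is a regulator of DNA methylation that is overexpressed in liver cancer, and this line is a pre-cancer model with a small larval liver.

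IGF ligands are secreted peptides that promote growth through a receptor tyrosine kinase, IGF1R, and its PI3K, AKT and TOR cascade. In adult vertebrates the liver is the main source of circulating IGF1 under the control of growth hormone. Most circulating IGF is bound by IGF binding proteins, which carry the ligand, extend its life and limit its access to the receptor. In fish as in mammals, IGFBP1 is a hepatic protein that rises on fasting and stress, and teleosts keep duplicated copies of many of these genes.

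Total counts ranged from 9064943 to 19370497 in hUHRF1 libraries and from 15285359 to 23322479 in WT libraries. Levels are given as CPM, the read count as a share of the library total, after scaling by TMM factors, which were 1.12 to 1.71 in hUHRF1 and 0.672 to 0.978 in WT and did not overlap. Of 15838 genes tested across the table, 4612 (29.1%) were called at an adjusted p under 0.05 (edgeR), 14.5% higher and 14.6% lower. The log2 fold change (L2FC) had a median over all genes of 0.05. On library size alone that median was 0.83, with 8251 genes higher and 609 lower by the same test. The human transgene has no ID in the counts, so its level could not be checked. Of 15 hepatocyte markers 13 were called lower and 0 higher, with a median L2FC of −1.68 and a summed level of 44823 to 107669 CPM in hUHRF1 against 139794 to 245598 CPM in WT. fabp10a itself, the gene whose promoter drives the transgene, had an L2FC of −1.36 (edgeR adjusted p = 0.0093). In pooled tissue, fewer hepatocytes and less RNA of these genes per hepatocyte cannot be told apart.

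The IGF2 ligands were both lower in hUHRF1 livers, and igf1 was close to its detection limit. igf2a, which encodes an IGF2 peptide, was at 37.1, 32.4, 15.7, 35.4 and 31.5 CPM in the hUHRF1 pools of clutches 4, 6, 7, 8 and 9. The WT pools had a lowest value of 95.7, a median of 104 and a highest of 124 CPM. Every hUHRF1 pool lay below every WT pool, and the pool of clutch 7 was the lowest of all. The mean of igf2a was 30.4 ± 8.51 CPM (SD, n = 5) against 107 ± 11.8 CPM (SD, n = 6), an L2FC of −1.82 (SE 0.21) or 3.52-fold lower. igf2b, the second IGF2 gene, was at 44.0, 46.1, 37.1, 46.2 and 34.4 CPM in the hUHRF1 pools, while WT ran from 80.3 over a median of 108 to 132 CPM. These ranges did not overlap either, and the hUHRF1 pools varied little (41.6 ± 5.45 CPM, SD, n = 5, against 108 ± 18.2 CPM, SD, n = 6), with an L2FC of −1.38 (SE 0.17). Within clutches igf2a was lower by log2 differences of −2.78 to −1.43 and igf2b by −1.81 to −1.13, in 5 of 5 clutches each.

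IGF1, the growth hormone-dependent ligand of later life, had 3, 4, 13, 6 and 22 counts in the hUHRF1 pools and 1 to 5 counts in the WT pools, with a WT median of 3. It was the 1 member that did not pass the filter on low counts. The levels were 0.157, 0.121, 0.738, 0.480 and 1.85 CPM in hUHRF1 and 0.0793 to 0.368 CPM in WT, so the groups overlapped, and the clutch 9 and clutch 7 pools stood above the rest. Those were also the hUHRF1 pools with the highest summed level of exocrine pancreas markers, 10292 CPM in clutch 9 and 6949 CPM in clutch 7 against 1111 to 2723 CPM in the others and 585 to 2444 CPM in WT. Pancreas was not the only such list. Summed muscle markers were at 735 CPM in the clutch 7 pool and 600 CPM in the clutch 9 pool. The other hUHRF1 pools had 64.3 to 167 CPM of them and WT 64.1 to 284 CPM. Stellate and mesenchymal, intestinal and endocrine pancreas sums were also highest, among hUHRF1 pools, in clutches 7 and 9. The part of RNA from any of these tissues in the IGF1 counts was not tested.

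**Figure D1:**
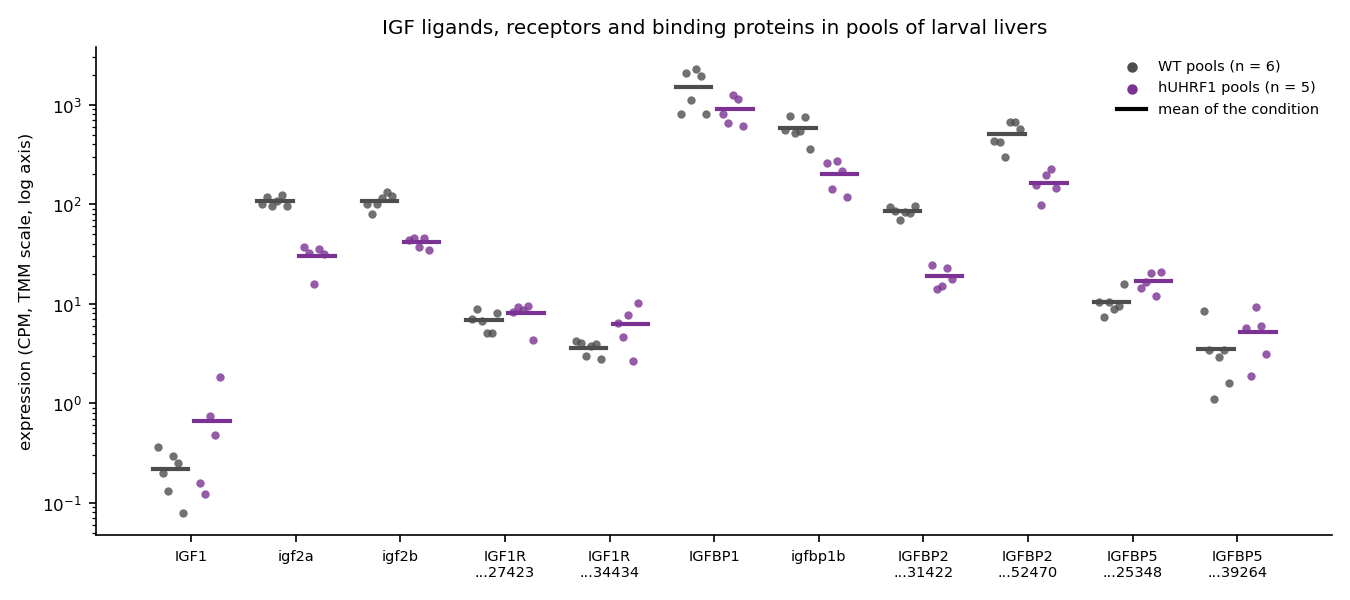
Level of each listed gene ID in each pool, in CPM on the TMM scale (log axis). Points are pools (6 WT, 5 hUHRF1) and lines are condition means. Levels are not corrected for gene length, so columns are not comparable with each other. The hUHRF1 points lie wholly below the WT points for igf2a, igf2b, igfbp1b and both IGFBP2 IDs and overlap them for the other 6 IDs.

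The receptor genes overlapped between conditions. The IGF1R copy ENSDARG00000027423 was at 8.18, 9.26, 8.74, 9.45 and 4.30 CPM in the hUHRF1 pools and at 5.04 to 8.81 CPM in WT, with a WT median of 6.87. The other copy, ENSDARG00000034434, was at 6.39, 4.59, 7.66, 2.64 and 10.3 CPM in hUHRF1 and at 2.77 to 4.27 CPM in WT, with a WT median of 3.87. Its highest levels were in the hUHRF1 pools of clutches 9 and 7, which also had the highest exocrine pancreas and muscle sums. The part of those tissues in its level was not tested. The hUHRF1 values of both copies reached above and below the WT values. The L2FC of the first copy was 0.23 (SE 0.24) and that of the second was 0.80 (SE 0.30). On library size alone the L2FCs were 1.01 and 1.59, or 0.18 and 0.76 above the median of all genes on that scale. Each was higher in 4 of 5 clutches, but the exception was clutch 9 for ENSDARG00000027423, where the log2 difference was −0.91, and clutch 8 for ENSDARG00000034434, where it was −0.56. In hUHRF1 pools the second copy had the lowest value where the first had its highest, and the reverse.

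Among the binding proteins, igfbp1b and both IGFBP2 genes were lower in hUHRF1 livers and 1 IGFBP5 gene was higher in each clutch. igfbp1b was at 257, 142, 274, 214 and 117 CPM in the hUHRF1 pools, and WT ran from 362 over a median of 556 to 776 CPM. All hUHRF1 pools lay below all WT pools, with means of 201 ± 69.3 CPM (SD, n = 5) and 586 ± 155 CPM (SD, n = 6) and an L2FC of −1.54 (SE 0.27). IGFBP1, taken as igfbp1a, was at 812, 662, 1257, 1150 and 607 CPM in hUHRF1, and WT ran from 799 over a median of 1521 to 2275 CPM. Here the groups overlapped, and the WT pools themselves varied, with a coefficient of variation of 44.7% against 10.99 to 29.7% for igf2a, igf2b, igfbp1b and both IGFBP2 IDs. IGFBP1 had an L2FC of −0.74 (SE 0.33), and of −0.55 with clutch as a block. It was lower in 4 of 5 clutches, and in clutch 4 the log2 difference was 0.01. On library size alone, its L2FC was 0.05, which is −0.79 relative to the median of all genes on that scale and −0.79 on the TMM scale.

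The 2 IGFBP2 genes, which encode the binding protein that is abundant in the blood of fetal mammals, were both lower. ENSDARG00000031422 was at 24.3, 14.2, 15.1, 23.1 and 17.7 CPM in hUHRF1, and WT ran from 68.7 over a median of 84.1 to 96.6 CPM. The gap between the highest hUHRF1 pool and the lowest WT pool was wider than the spread within either condition. The means were 18.9 ± 4.61 CPM (SD, n = 5) and 84.8 ± 9.88 CPM (SD, n = 6), 4.49-fold lower with an L2FC of −2.17 (SE 0.19). ENSDARG00000052470 was at 157, 97.4, 196, 225 and 146 CPM in hUHRF1, and WT ran from 301 over a median of 502 to 675 CPM. It too had no overlap, with means of 164 ± 48.9 CPM (SD, n = 5) and 513 ± 152 CPM (SD, n = 6) and an L2FC of −1.64 (SE 0.27).

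The IGFBP5 genes, whose product in mammals binds extracellular matrix and is made mainly by mesenchymal cells, were not lower. ENSDARG00000025348 was at 14.5, 16.6, 20.6, 11.8 and 21.0 CPM in hUHRF1, and WT ran from 7.36 over a median of 9.86 to 15.7 CPM. The conditions overlapped through the WT pool of clutch 9, yet the hUHRF1 pool was the higher one in 5 of 5 clutches, by log2 differences of 0.328 to 1.202. The L2FC was 0.71 (SE 0.21), and 0.62 without the hUHRF1 pool of clutch 7 or without that of clutch 9. Those pools had its highest levels and also the highest exocrine pancreas and muscle sums of all pools. ENSDARG00000039264 was at 5.77, 1.88, 9.31, 6.00 and 3.12 CPM in hUHRF1 and at 1.098 to 8.46 CPM in WT. That spread was wider than the difference (L2FC 0.58, SE 0.49), and the sign turned to −0.19 in clutches 4 to 6 alone. Its L2FC was 1.33 on library size alone. Only 1 of these IDs is the listed igfbp5b.

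**Figure D2:**
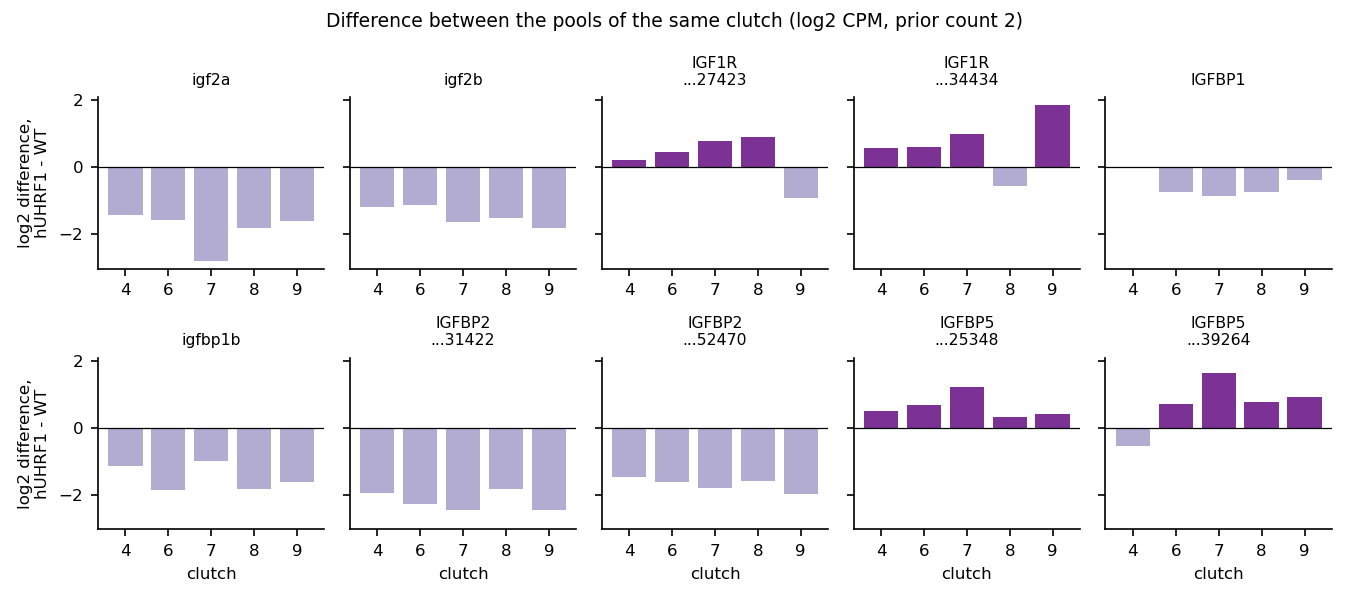
Log2 difference between the hUHRF1 pool and the WT pool of the same clutch for each tested member (prior count 2). Bars below 0 mean lower in hUHRF1. The bars of igf2a, igf2b, igfbp1b and both IGFBP2 IDs are below 0 in 5 of 5 clutches, those of IGFBP5 ENSDARG00000025348 are above 0 in 5 of 5, and the other 4 IDs have 1 clutch against the rest.

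Of the 10 member IDs tested, 5 were called lower, 1 higher and 4 neither way, beside 29.1% of all genes called. The choice of members used this contrast, so nothing is read from that share. Their median L2FC was −1.06 beside 0.05 over all genes. For 5 of 10 the hUHRF1 pools lay wholly below the WT pools, beside 9.02% of all genes, and for 0 of 10 wholly above, beside 8.05%. Over the 11 fits that left out 1 pool the L2FC of igf2a was −1.90 to −1.66, and it was −1.01 on library size alone.

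**Figure D3:**
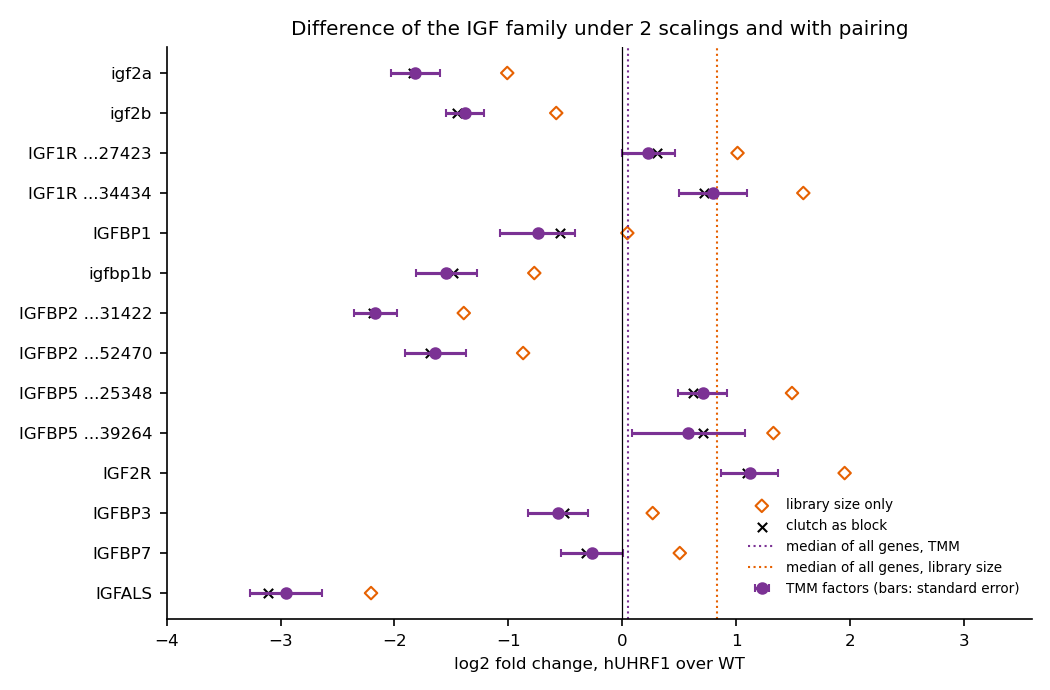
L2FC of the 14 tested IGF family IDs, hUHRF1 over WT. Filled circles with bars are the TMM fit with its standard error, diamonds use library size only and crosses add clutch as a block. Dotted lines are the median of all genes on each scale (0.05 and 0.83). Diamonds sit to the right of the circles by about the shift of that median, and IGFBP1, IGFBP3 and IGFBP7 are below 0 on the TMM scale and above 0 on library size.

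Other genes of the family were looked up by name and carry a test. IGFALS, the acid-labile subunit that in mammals holds IGF and IGFBP3 in a ternary complex in plasma, was at 13.1, 4.28, 3.58, 10.2 and 10.4 CPM in hUHRF1, and WT ran from 55.5 over a median of 64.4 to 71.6 CPM. No pools overlapped, and its L2FC lay farther from 0 than that of any listed member. It fell 7.75-fold, with an L2FC of −2.96 (SE 0.32, edgeR adjusted p = 3.0e-05). IGF2R, in mammals a scavenger receptor that clears IGF2 and sorts lysosomal enzymes, was at 92.3, 107, 63.0, 69.3 and 41.5 CPM in hUHRF1, and WT ran from 20.7 over a median of 33.4 to 49.6 CPM. It rose in 5 of 5 clutches with an L2FC of 1.12 (SE 0.25, edgeR adjusted p = 0.0047), although the hUHRF1 pool of clutch 9 lay below the WT pool of clutch 4. In clutches 7 to 9 alone the adjusted p of IGF2R was 0.0505 (edgeR).

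IGFBP3, the main carrier in mammalian plasma, had an L2FC of −0.56 (SE 0.27, approximate 95% interval −1.09 to −0.03, edgeR adjusted p = 0.129). IGFBP7, a related secreted protein with low affinity for IGF, had an L2FC of −0.26 (SE 0.27, approximate 95% interval −0.81 to 0.28, edgeR adjusted p = 0.494). These intervals were taken from the SE alone, without the degrees of freedom of the test or a correction for the number of genes. Neither gene passed the test, and both turned positive on library size alone, to 0.27 and 0.51. igf3, a gonadal ligand of fish, had 0 counts in all 11 pools, and igfbp6a had at most 1 count per pool. igfbp6b had 6, 3, 4, 6 and 20 counts in the hUHRF1 pools and 0 to 3 counts in WT, with the highest count in the clutch 9 pool, and did not pass the filter on low counts. Of the 4 other family genes tested, 1 was called lower and 1 higher, beside 14.6% and 14.5% of all genes. By place in the zebrafish GRCz12tu annotation, igfbp1a and igfbp3 are direct neighbours with 0 genes between them, as are igfbp2a and igfbp5a, and igfbp2b and igfbp5b have 1 gene between them that encodes no protein. The difference between neighbours was not tested.

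Ratios of read counts within a pool do not depend on the scaling between libraries. IGF2R over the sum of igf2a and igf2b was 1.14, 1.37, 1.19, 0.850 and 0.630 in the hUHRF1 pools and 0.0950 to 0.248 in WT, with a WT median of 0.167. No pools overlapped, since the numerator rose and the denominator was lower. The sum of igf2a and igf2b over IGFALS was 6.18, 18.3, 14.8, 7.96 and 6.36 in hUHRF1 and 2.79 to 4.03 in WT, again without overlap. IGFBP1 over igfbp1b was 3.16, 4.65, 4.58, 5.37 and 5.18 in hUHRF1 and 1.44 to 4.14 in WT, with a WT median of 2.39, and was higher in 5 of 5 clutches. The igf2a to igf2b ratio overlapped, at 0.424 to 0.917 in hUHRF1 against 0.798 to 1.46 in WT. Of all reads of the IGF family, IGFBP1 took 54.7 to 64.8% in hUHRF1 and 35.6 to 57.6% in WT, and igf2a with igf2b took 2.72 to 6.76% against 5.31 to 9.95%. IGF2R took 3.25 to 9.24% in hUHRF1 and 0.833 to 2.19% in WT. These ratios use the contrast that chose the members and were not tested.

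**Figure D4:**
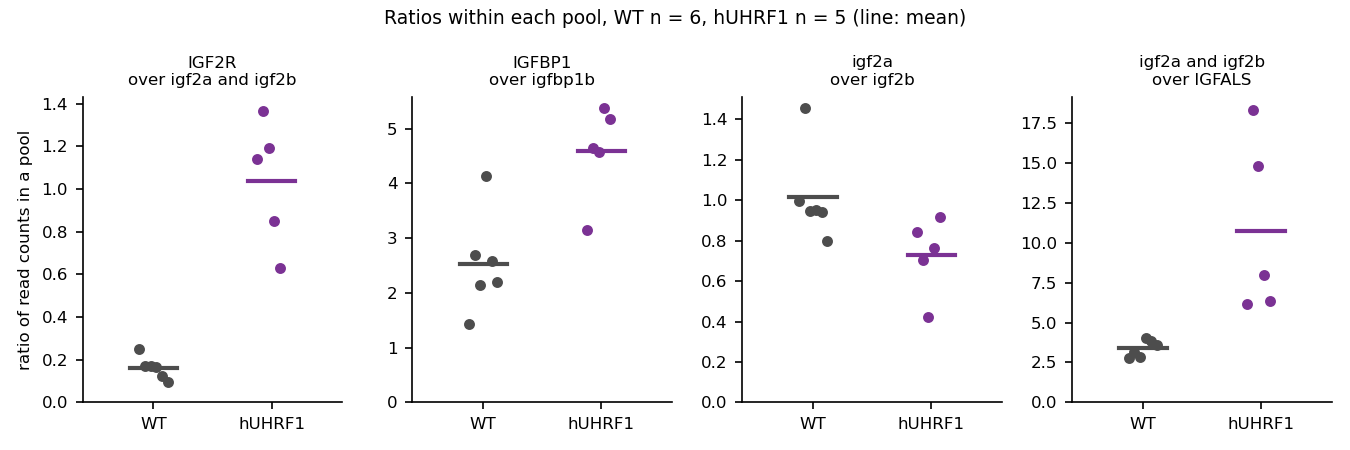
Ratios of read counts within each pool (6 WT, 5 hUHRF1), with a line at each condition's mean. The IGF2R ratio is 0.630 to 1.37 in hUHRF1 against 0.0950 to 0.248 in WT and the IGFALS ratio 6.18 to 18.3 against 2.79 to 4.03, both without overlap, while the IGFBP1 and igf2a ratios overlap.

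Whether the difference varied between sets of clutches was not used in choosing the members and was tested. The titles of clutches 4 to 6 are worded unlike those of clutches 7 to 9, and whether this marks a batch is not stated. The labels name a HiSeq sequencer for all libraries and the methods also a NextSeq, without saying which libraries it read. The interaction of condition and set of clutches called 0 of 15838 genes (edgeR, 0%), and 604 genes (3.81%) had an unadjusted p under 0.05, 0 of them in the IGF family. The interaction of igf2b was −0.58 with an unadjusted p of 0.0553 (edgeR adjusted p = 0.999). Clutches 4 to 6 held hUHRF1 pools of clutches 4 and 6 only, and the smallest adjusted p over all genes was 0.999 (edgeR). With so few pools, the lack of calls does not show that the difference was equal in both sets. Within clutches 4 to 6 and within clutches 7 to 9 the L2FC was −1.61 and −2.01 for igf2a, −1.08 and −1.66 for igf2b, −1.65 and −1.48 for igfbp1b, −2.12 and −2.24 for IGFBP2 ENSDARG00000031422, and −1.62 and −1.78 for IGFBP2 ENSDARG00000052470.

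Among WT pools alone, clutches 7 to 9 were compared with clutches 4 to 6. This called 0 of 14635 genes (edgeR, 0%), with 1557 genes (10.6%) at an unadjusted p under 0.05. Of the 10 members tested, 1 was among these. IGFBP2 ENSDARG00000052470 was at 673, 675 and 576 CPM in WT clutches 7, 8 and 9 and at 428, 424 and 301 CPM in clutches 4, 5 and 6, with an L2FC of 0.74 (SE 0.22) that did not pass correction (edgeR adjusted p = 0.330). The copy ENSDARG00000031422 had an L2FC of 0.08 (SE 0.20) in the same comparison. Of the other family genes IGFBP7 had an L2FC of 0.75 (SE 0.20, edgeR adjusted p = 0.305).

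Hepatocyte markers were lower in the same pools, so members were also expressed relative to the mean log2 level of those 15 markers in the same pool. On that scale igf2a, igf2b, igfbp1b, both IGFBP2 IDs and IGFALS overlapped between conditions. IGFALS did so only through the hUHRF1 pool of clutch 4 (−6.66) and the WT pool of clutch 7 (−6.68). Its means were −7.51 ± 0.72 (SD, n = 5) in hUHRF1 and −6.21 ± 0.41 (SD, n = 6) in WT. The igf2a level was −5.54 ± 0.62 (SD, n = 5) in hUHRF1 and −5.47 ± 0.25 (SD, n = 6) in WT. The differences were −0.07 for igf2a, 0.42 for igf2b, 0.22 for igfbp1b, 0.15 for IGFBP2 ENSDARG00000052470, −0.39 for IGFBP2 ENSDARG00000031422 and −1.30 for IGFALS. The hUHRF1 pools lay wholly above the WT pools for IGFBP1, with a difference of 1.13, and for both IGF1R IDs (2.00 and 2.45). The same held for both IGFBP5 IDs (2.50 and 2.45), IGF2R (2.88), IGFBP3 (1.19) and IGFBP7 (1.50). For IGFBP5 ENSDARG00000039264 the lowest hUHRF1 pool (−8.852) and the highest WT pool (−8.857) nearly touched. Those of IGFBP1 were also close (−1.230 and −1.248). The markers had a median L2FC of −1.68, so a gene with no difference between conditions also rises on this scale. The share of all genes that lie wholly above WT on it was not computed. After the mean of the condition was subtracted, the r with the hepatocyte markers across the 11 pools was graded. It was 0.926 for IGFBP2 ENSDARG00000052470, 0.740 for IGFBP7, 0.581 for IGFBP2 ENSDARG00000031422 and 0.509 for IGFBP1. Lower values were 0.369 for IGFBP5 ENSDARG00000039264, 0.267 for IGFALS, 0.228 for igfbp1b, 0.167 for igf2b and 0.118 for igf2a. IGF2R had −0.485, and the remaining IDs had −0.183 to −0.137. These pools share library composition and depth, so the values are descriptions.

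Markers of other cells were counted in the same way, beside 14.5% of all genes called higher and 14.6% lower. Of 9 stellate and mesenchymal markers tested 4 were called higher, with a summed level of 130 to 292 CPM in hUHRF1 and 79.1 to 137 CPM in WT. Of 7 biliary markers 2 were called higher, krt18b and epcam, with sums of 962 to 1463 CPM and 815 to 1364 CPM. Of 6 macrophage markers 4 were called higher, with sums of 27.2 to 41.1 CPM and 10.3 to 28.0 CPM. Markers of every list were counted by ID, and some IDs share a name. The macrophage IDs called were marco, csf1ra, MFAP4 ENSDARG00000089667 and MFAP4 ENSDARG00000090783. The MFAP4 ID with the highest level, ENSDARG00000090557, was not called (L2FC 0.19). Of 7 exocrine pancreas markers 6 were called higher, as were 2 of 2 endocrine pancreas markers. Endothelial markers had sums of 252 to 304 CPM in hUHRF1 and 221 to 331 CPM in WT, with 2 of 7 called higher. Of 6 intestinal markers 1 was called higher and 1 lower (FABP2, L2FC −0.77), and of 3 erythrocyte markers 0 were called higher and 1 lower (hbae3, L2FC −0.98). Of 7 muscle markers 1 was called higher, with sums of 64.3 to 735 CPM in hUHRF1 and 64.1 to 284 CPM in WT. The 1 neutrophil marker tested was not called. The part of these cells in the levels of IGFBP5, IGF1R and IGF2R was not tested.

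Upstream of the ligands, growth hormone input was examined through a list of receptors, kinases and inhibitors. This list and the pathway lists below were chosen with earlier results of these data known, so their counts are descriptions. Of 15 genes tested 7 fell and 2 rose, beside 14.6% and 14.5% of all genes, with a median L2FC of −0.62 beside 0.05 for all genes. The growth hormone receptor ghra fell to 8.97 ± 2.65 CPM (SD, n = 5) in hUHRF1 against 25.5 ± 5.59 CPM (SD, n = 6) in WT (L2FC −1.51, SE 0.21, edgeR adjusted p = 0.00022). The second receptor, ghrb, fell too, with an L2FC of −1.82 (SE 0.42, edgeR adjusted p = 0.0053). The transcription factor stat5a, which is activated downstream of this receptor, had an L2FC of −1.44 (SE 0.25, edgeR adjusted p = 0.00084). The gene cishb, a feedback inhibitor that STAT5 induces, had one of −1.62 (SE 0.27, edgeR adjusted p = 0.0006). These L2FCs lay near the median of the hepatocyte markers, −1.68. Genes of the pathway lists were not expressed relative to those markers. The part of a general fall of hepatocyte RNA in their differences was not tested. JAK2 (−0.53), SOCS3 ENSDARG00000026611 (−1.63) and CISH (−1.28) were the other genes that fell. None of these 3 was called on library size alone, where the L2FCs were 0.27, −0.78 and −0.44. JAK2 was also not called in clutches 4 to 6 (adjusted p = 0.169, edgeR) or 7 to 9 alone (adjusted p = 0.0866, edgeR). CISH was no longer called without the hUHRF1 pool of clutch 6, 7, 8 or 9 or the WT pool of clutch 4, 5 or 7, at L2FCs of −1.35 to −1.08. In clutches 4 to 6 alone the adjusted p of stat5a was 0.0611 (edgeR).

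The 2 genes that rose were prlrb, a prolactin receptor, and PTPN6, a phosphatase of blood cells. prlrb was at 2.55 to 30.3 CPM in hUHRF1 and at 0.0974 to 1.66 CPM in WT, with an L2FC of 4.20 (SE 0.68, edgeR adjusted p = 0.00056). PTPN6 was at 1.52 to 6.80 CPM against 0.0657 to 2.02 CPM and had an adjusted p of 0.0484 (edgeR, L2FC 1.63, SE 0.58), a call that 4 of 11 fits without 1 pool kept. It was lost without the hUHRF1 pool of clutch 4, 6 or 9 or the WT pool of clutch 4, 7, 8 or 9.

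**Figure D5:**
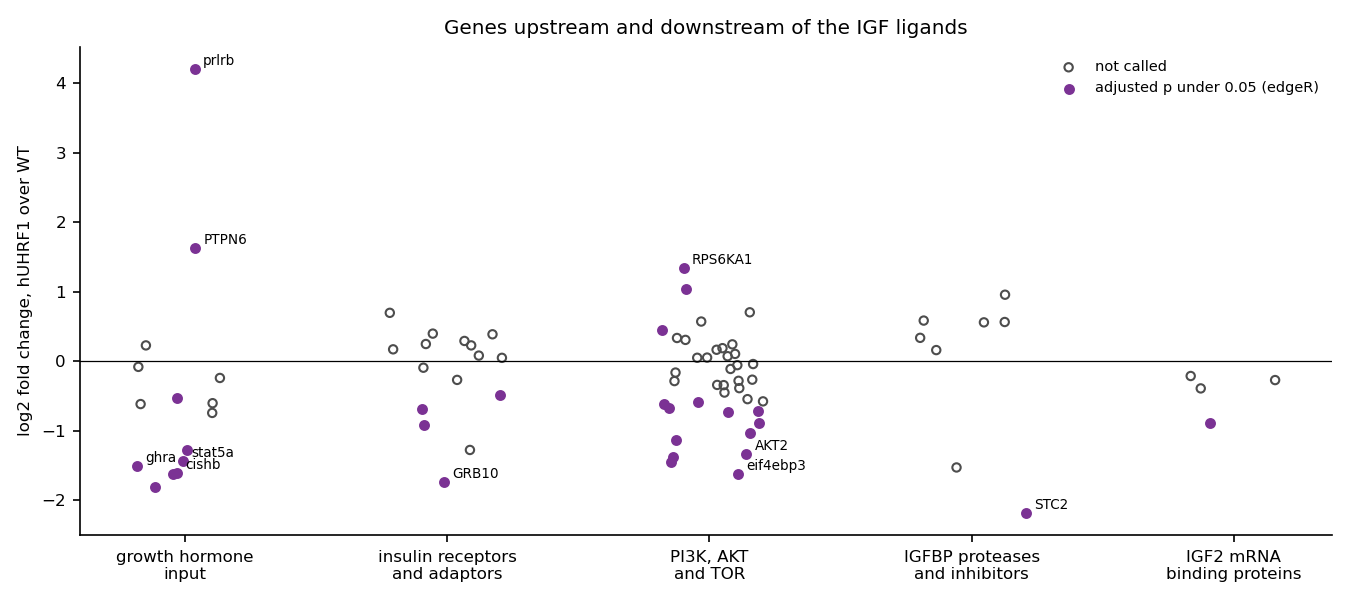
L2FC (hUHRF1 over WT) of the tested genes of each pathway list. Filled points passed an adjusted p under 0.05 (edgeR) and open points did not, and genes named by the rule with an L2FC beyond 1.3 are labelled. Filled points are mostly below 0, 7 of 9 for growth hormone input and 12 of 15 for PI3K, AKT and TOR. On library size alone most called genes of the lists were above 0, as were 8251 of the 8860 called among all genes.

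Among insulin receptors and adaptors 4 of 16 genes fell and 0 rose, beside 14.6% and 14.5% of all genes, with a median L2FC of 0.06. GRB10 ENSDARG00000035308, an adaptor that restrains insulin and IGF1 receptors, fell to 11.1 ± 4.11 CPM (SD, n = 5) against 37.3 ± 7.99 CPM (SD, n = 6), at an L2FC of −1.74 (SE 0.24, edgeR adjusted p = 0.00019). The other GRB10 ID, ENSDARG00000002013, was not called, with an L2FC of −0.27 (SE 0.14, edgeR adjusted p = 0.173). Both insulin receptor genes fell on the TMM scale, INSR ENSDARG00000071524 with an L2FC of −0.69 (SE 0.17, edgeR adjusted p = 0.0072) and INSR ENSDARG00000011948 with one of −0.48 (SE 0.17, edgeR adjusted p = 0.0422), but on library size alone these L2FCs were 0.10 and 0.30. The INSR ENSDARG00000011948 call held in 3 of 11 fits without 1 pool, those without the hUHRF1 pool of clutch 4 or 8 or the WT pool of clutch 9. The adaptor shc2 (L2FC −0.91, SE 0.29, edgeR adjusted p = 0.0301) lost its call without the hUHRF1 pool of clutch 6, 7 or 9 or the WT pool of clutch 5, 6 or 8, and on library size alone (−0.12).

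Of 39 genes of the PI3K, AKT and TOR cascade 12 fell and 3 rose, beside 14.6% and 14.5% of all genes, with a median L2FC of −0.28 beside 0.05. AKT2 ENSDARG00000103612, named for the AKT kinase of insulin-responsive tissues, was at 17.9 to 37.7 CPM in hUHRF1 and at 58.0 to 98.3 CPM in WT. Its L2FC was −1.34 (SE 0.21, edgeR adjusted p = 0.00039). The other ID of that name, akt2 ENSDARG00000011219, was not called, with an L2FC of −0.11 (SE 0.24, edgeR adjusted p = 0.759). eif4ebp3 ENSDARG00000054916, a repressor of translation that TOR inactivates, had an L2FC of −1.62 (SE 0.26, edgeR adjusted p = 0.0005), and PIK3R1, a regulatory subunit of PI3K, had one of −1.13 (SE 0.20, edgeR adjusted p = 0.001). foxo3a (−1.45) and FOXO1 ENSDARG00000099555 (−1.03), transcription factors that AKT excludes from the nucleus, were among the genes that fell, as were PIK3CB (−0.73), RPTOR (−0.67) and rps6kb1b (−0.59). On library size alone AKT2 (−0.55), PIK3R1 (−0.34), foxo3a (−0.69) and FOXO1 ENSDARG00000099555 (−0.27) were not called, and PIK3CB (0.055), RPTOR (0.12) and rps6kb1b (0.21) turned positive without a call. The other FOXO1 ID, ENSDARG00000061549, was not called on the TMM scale, with an L2FC of −0.16. PIK3CG (−0.89) lost its call without the hUHRF1 pool of clutch 4 and on library size alone (−0.08). On the TMM scale the genes that fell thus included parts of the cascade (PIK3CB, RPTOR) and factors that AKT or TOR restrains (foxo3a, eif4ebp3). pik3r3a, another regulatory subunit, rose with an L2FC of 1.04 (SE 0.27, edgeR adjusted p = 0.011). RPS6KA1 (L2FC 1.34, SE 0.43, edgeR adjusted p = 0.0314) and PIK3CA (0.45, SE 0.16, edgeR adjusted p = 0.0441) also rose but kept their calls in 5 and 3 of 11 fits without 1 pool.

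Of 8 proteases of IGF binding proteins and inhibitors of these proteases 1 gene fell and 0 rose, beside 14.6% and 14.5% of all genes. It was STC2 ENSDARG00000102206, a stanniocalcin, which in mammals inhibits the PAPPA proteases that cleave IGF binding proteins. It was at 10.5 to 49.6 CPM in hUHRF1 and at 98.7 to 196 CPM in WT, with an L2FC of −2.18 (SE 0.34, edgeR adjusted p = 0.00045), and in clutches 4 to 6 alone its adjusted p was 0.0588 (edgeR). Both IDs named PAPPA were too low to test. Of 4 IGF2 mRNA binding proteins 1 fell, IGF2BP3, with an L2FC of −0.90 (SE 0.19, edgeR adjusted p = 0.0029), beside 14.6% of all genes called lower. It was not called on library size alone (−0.10) or in clutches 4 to 6 alone (adjusted p = 0.093, edgeR). Over the 5 lists 5 genes rose and 25 fell on the TMM scale, beside 2299 and 2313 of all 15838 genes. On library size alone 35 rose and 7 fell, beside 8251 and 609 of all genes. ghra, cishb and GRB10 ENSDARG00000035308 were among those that were called lower on both scales.

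For each tested member the genes with the most similar pattern were listed by Pearson's r of log2 CPM over the 11 pools, among 10055 genes. The conditions differ in level for most of them, so this likeness includes the contrast itself. For igf2a these were pparg (r = 0.975), XDH (0.974) and tlcd4b (0.970), and for igf2b XDH (0.970), POMT1 (0.969) and CHDH (0.968). For igfbp1b they were si:ch73-375g18.1 (0.972), LPIN1 (0.962) and nr5a5 (0.960). IGFBP2 ENSDARG00000031422 was most like il6r (0.988), the unnamed ENSDARG00000100753 (0.988) and MAN1C1 (0.987), and IGFBP2 ENSDARG00000052470 was most like rab11fip1b (0.990), AHCY (0.985) and ITIH2 (0.983). Many genes were nearly as similar. An r above 0.9 was reached by 260 genes for igf2a, 215 for igf2b and 128 for igfbp1b. For the IGFBP2 IDs it was reached by 487 and 566 genes, in the order above. The next gene after those named had an r of 0.969 for igf2a and 0.968 for igf2b. IGFBP5 ENSDARG00000025348 was most like epcam (0.938), C10H17orf49 ENSDARG00000099273 (0.931) and CNN2 (0.918). epcam is on the biliary list, of which 2 of 7 tested genes were called. IGFBP5 ENSDARG00000039264 was most like TRPV6 (0.941), ABCA12 (0.921) and PRR5 (0.888). For IGFBP1 they were si:dkey-4e7.3 (0.907), zgc:162608 (0.902) and hax1 (0.896). For IGF1R ENSDARG00000027423 they were gipc2 (0.882), hsp70l (0.869) and fbxo44.9 (0.841). For IGF1R ENSDARG00000034434 they were myhz1.3 (0.887), tgfb1a (0.884) and FZD7 ENSDARG00000027589 (0.858). After the condition mean was subtracted, the 45 pairs of members had a median r of −0.02, with 3 pairs above 0.5, among them IGFBP1 with igfbp1b (0.717), and 5 below −0.5, among them the IGF1R IDs with each other (−0.593).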

How the data were processed

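Total RNA of dissected liver pools was depleted of ribosomal RNA and sequenced. The authors aligned reads to the zebrafish genome GRCz10 with HISAT2 and assigned them to genes with HTSeq, and they deposited raw counts, 1 table per pool. Of 32105 gene IDs 26269 had a name. Counts were tested with edgeR 4.0.16 (R 4.3.3) by its quasi-likelihood test with condition as the term, TMM factors and Benjamini-Hochberg adjustment over all genes kept by filterByExpr (minimum count 10, total 15), and were called at an adjusted p under 0.05. DESeq2 1.42.0 was an alternative. Pools of one clutch are siblings, and their deviations from the condition means correlated in 5 of 5 clutches (r = 0.206 to 0.481), so clutch was also fitted as a replicate block. The members and lists were chosen with earlier results of these data known. Named genes were the members, the other IGF family genes, and the 3 genes of each pathway list with the smallest p in each direction; other pathway genes are given with their L2FC and were chosen after their values were seen. Genes with a near-identical copy may share reads. Levels are not corrected for length, and the strand setting of the counting is not given in the sources used here. Scripts were tested on simulated data. Without molecular identifiers, low counts carry counting error beyond that of independent molecules.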

Additional observations from a re-analysis of the deposited data

Results flagged for a closer look

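Of 28 sets of pools of one condition looked at, 2 had a pool far from the others, and chance alone gives about 1 in 20. The hUHRF1 pool of clutch 7 had an igf2a level of 15.7 CPM, whereas the other hUHRF1 pools were at 31.5 to 37.1 CPM. The hUHRF1 pool of clutch 9 had 4.30 CPM of IGF1R ENSDARG00000027423, whereas the other hUHRF1 pools were at 8.18 to 9.45 CPM.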

How the results depend on the processing

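For the 14 tested IGF family IDs, 265 of 280 values under an alternative kept direction and side of the threshold, 5 lost the call, 6 gained it and 4 reversed. The reversals were IGFBP1 (0.046), IGFBP3 (0.27) and IGFBP7 (0.51) on library size alone and IGFBP5 ENSDARG00000039264 (−0.19) in clutches 4 to 6 alone. Of the 16 pathway genes named by the rule, INSR ENSDARG00000071524 also reversed on library size (0.10). Outside that tally, pathway genes called lower that turned positive on library size were INSR ENSDARG00000011948 (0.30), JAK2 (0.27), rps6kb1b (0.21), TSC1 ENSDARG00000026048 (0.19), RPTOR (0.12), GSK3B (0.085) and PIK3CB (0.055). On library size alone 8860 genes were called, 8251 higher and 609 lower, since all L2FCs shift up with their median. Among these were 4 members higher and 5 lower, and 35 pathway genes higher and 7 lower. In clutches 4 to 6 alone, with fewer pools, 1784 genes were called, 0 members higher, 1 pathway gene higher and 8 lower. In clutches 7 to 9 alone these were 2541 genes, 0 members and 0 other family genes higher, and 1 pathway gene higher. With at least 10 counts in every library 2 members were called higher, DESeq2 called 2 other family genes higher, and without a filter 3 pathway genes rose. With the set of clutches as a term 8 pathway genes were called higher. With clutch as a replicate block 5566 genes were called, 6 members lower and 1 higher, and 6 pathway genes higher and 33 lower. Leaving out 1 pool in turn gave 0 to 2 members called higher, 2 without the hUHRF1 pool of clutch 8 and 0 without that of clutch 7 or 9. It gave 2 to 7 pathway genes called higher, 2 without the WT pool of clutch 8 and 3 without the WT pool of clutch 4, 6 or 7 or the hUHRF1 pool of clutch 4, 6 or 9. The other causes were not tested. Levels could not be compared between genes, so the order of the levels in WT pools was not run. IGF1, igfbp6a and igfbp6b were limited by depth, and with a prior count of 0.5 only the medians of igfbp6a in both conditions and of igfbp6b in WT moved beyond the spread.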
